A study of Caenorhabditis elegans with 4 samples.

Results

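The KGB-1 pathway is one of the JNK-type MAP kinase cascades of *C. elegans*. Followed here were 8 genes, called cascade genes below: *svh-1* and *svh-2* (a secreted ligand and its receptor), *shc-1* (an adaptor), *mlk-1*, *mek-1*, *kgb-1* and *kgb-2* (kinases) and *vhp-1* (a phosphatase). Of these, *kgb-2* was included as a paralog of *kgb-1*. All probe sets that the array annotation gives to 1 of these genes alone were taken, which gave 14 of the 22625 probe sets of the array. One further probe set carries *mek-1* together with a second gene and was therefore not assigned to either. Total RNA came from 1-day-old adults kept at 20 °C and then exposed for 1 h to 1 mM copper sulfate or to water, and was read on Affymetrix *C. elegans* GeneChips. The 4 conditions were N2 Bristol wild-type animals without and with copper and *kgb-1(km21)* mutants without and with copper, with 1 array for each. Each array is 1 RNA extract, and a mutant array differs from a wild-type array by the culture as well as by the *kgb-1* allele, which cannot be told apart.

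KGB-1 is the terminal kinase of its cascade, with MEK-1 directly above it, MLK-1 above MEK-1, and the phosphatase VHP-1 as its negative regulator. The pathway is known for protection against heavy metals and for the regrowth of injured axons, in which the growth factor-like SVH-1 acts through the Met-like receptor tyrosine kinase SVH-2. Since the kinases are switched on by phosphorylation, transcript level and pathway activity are separate quantities, and the arrays measure the former only.

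Signals for 2 parts of the cascade rose more than 2-fold with copper in wild-type animals. They were the kinase gene *kgb-1* (2.45-fold) and the gene for its phosphatase, *vhp-1* (2.28-fold on 1 of 2 probe sets). *kgb-1* has 1 probe set, whose suffix marks probes shared between transcripts. No probe set of the cascade with a signal over the minimum changed 2-fold with copper in *kgb-1* mutants, nor between the genotypes at either treatment. In the mutants that *vhp-1* probe set still rose at least 1.54-fold. The other *vhp-1* probe set rose 1.65-fold in the mutants and did not rise in wild-type animals. Of all probe sets measured, 2.11% were raised over 2-fold in wild-type animals and 1.51% in the mutants. The MAPKK gene *mek-1* had nearly the same signal with and without copper. In a model with copper and genotype as factors, none of the 9 probe sets bright enough to be tested was called for either factor. The *svh-1* and *shc-1* probe sets were below the signal minimum on every array. Because RNA of all tissues was pooled in each extract, fewer cells of a type and less RNA per cell cannot be told apart in any of these values.

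**Figure D1:**
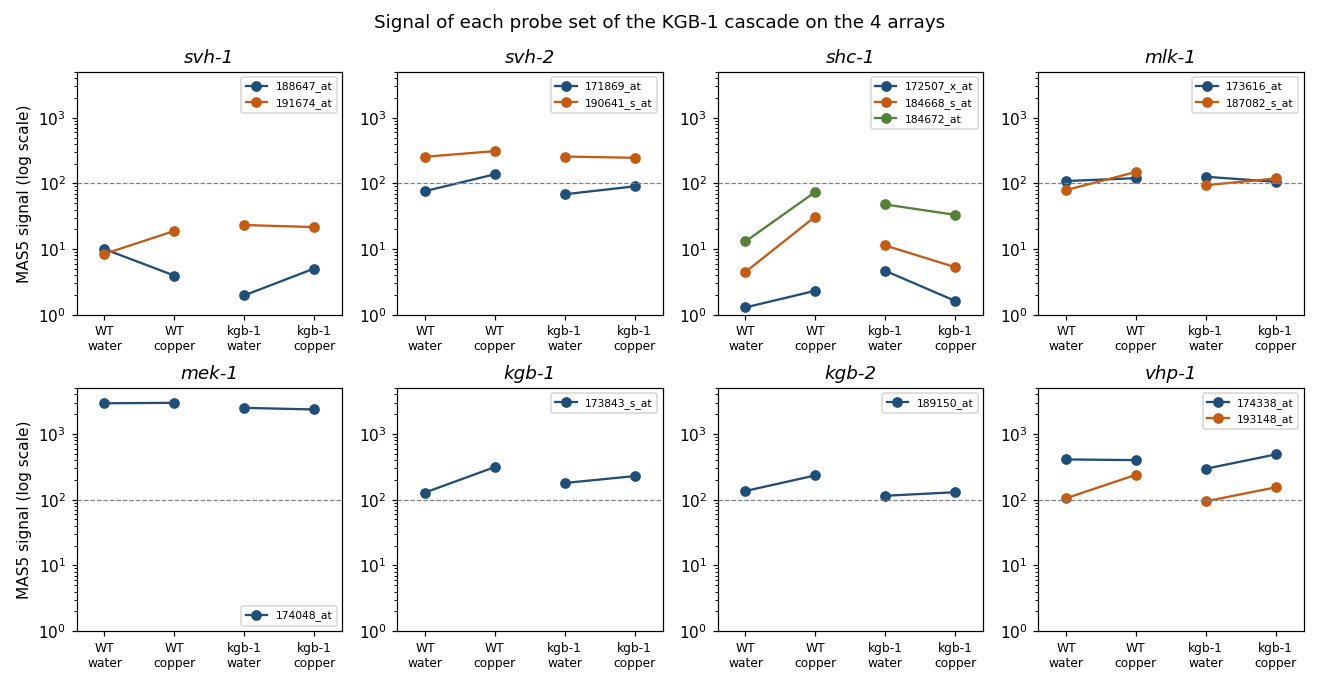
MAS5 signal (log scale) of the 14 probe sets of the KGB-1 cascade genes on the 4 arrays, 1 point per array, with lines joining water and copper within a genotype and the signal minimum of 100 as a dashed line. *kgb-1*, *kgb-2* and 1 *vhp-1* probe set rise from water to copper in wild-type animals, *mek-1* is flat, and *svh-1* and *shc-1* lie below the dashed line on all arrays.

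The signals are MAS5 intensities on a linear scale, which the authors had scaled to a common mean on each array, and the median signal of all worm probe sets was 75.5 to 82.7. Signals of different probe sets depend on their probes, so they were compared between arrays only and not between genes. A signal of at least 100 was required of the brighter array in any comparison, and a fold change against a signal below 100 was computed against 100 and is written as a lower bound. As a measure of technical spread, 18 hybridization controls were used: between arrays their log2 ratios had an SD of 0.176 to 0.215, and the difference of their copper ratios between the genotypes had an SD of 0.335. The adult markers were strongly present, with signals of at least 5664 on every array for the 5 probe sets of the yolk protein genes *vit-2*, *vit-5* and *vit-6* and the adult collagen gene *col-19*.

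The mutated gene itself has 1 probe set on the array, and the suffix of that probe set marks probes shared between transcripts. RefSeq lists 1 coding transcript of *kgb-1*. Whether the probes also read a transcript of another gene is not given in the sources used here. *kgb-1*, the JNK-type MAPK gene, read 129 without and 314 with copper on the wild-type arrays, and 179.5 without and 229 with copper on the mutant arrays. The untreated wild-type array was the lowest of the 4 and the copper-treated wild-type array the highest, with both mutant arrays between them. Where the *km21* change lies relative to these probes is not given in the sources used here, and the signals therefore say nothing about the genotype. The copper rise was 2.45-fold for wild-type animals and 1.27-fold for the mutants. The log2 ratios were 1.29 and 0.35. Their difference of 0.94 exceeded the SD of that difference among the hybridization controls and the SD of 0.397 among 3905 probe sets at 100 or more on all arrays with a mean signal under 500, although with 1 array per condition it could not be tested. Without copper the mutants had 1.40 times the wild-type signal, and with copper the wild-type signal was 1.37 times that of the mutants, so that the sign of the genotype difference depended on the treatment. The copper change shared by both genotypes was 0.82 on the log2 scale (SE 0.25, 95% interval 0.21 to 1.43), which was not called. Its Benjamini-Hochberg adjusted p over the 11266 probe sets tested was 0.252 in limma, with a rise in each genotype. The shared genotype difference was 0.01 (95% interval -0.59 to 0.62, limma adjusted p = 0.990).

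*kgb-2* encodes a close paralog of KGB-1. It read 136 without and 234 with copper on the wild-type arrays, and 115 without and 129.9 with copper on the mutant arrays. The copper-treated wild-type array stood above the other 3, which lay within 1.18-fold of each other. The copper rise in wild-type animals was 1.73-fold, under the 2-fold rule. In the mutants it was 1.13-fold, and the log2 ratio of 0.18 was within the control SD. The shared copper change was 0.48 (SE 0.23, 95% interval -0.08 to 1.05, limma adjusted p = 0.462). Under copper, the wild-type signal was 1.80 times the mutant signal, the largest genotype ratio among the cascade probe sets with all 4 signals at 100 or more. The shared genotype difference was -0.55 (95% interval -1.11 to 0.02, limma adjusted p = 0.478).

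*vhp-1* encodes the MKP-type phosphatase that removes phosphate from activated KGB-1, and RefSeq lists 6 coding transcripts of it. Of its 2 probe sets, 193148_at read 105 without and 239 with copper on the wild-type arrays, against 94.4 and 154 on the mutant arrays. Both copper-treated arrays were above both untreated arrays, with the wild-type array the highest. This is a rise of 2.28-fold in wild-type animals and of at least 1.54-fold in the mutants. The shared copper change of 0.95 (SE 0.23, 95% interval 0.39 to 1.50) was the largest of the 9 tested and was not called (limma adjusted p = 0.155), with a rise in each genotype. The other probe set, 174338_at, showed another pattern, with 410.1 without and 401 with copper for wild-type animals but 296 without and 488 with copper for the mutants. Here the copper-treated mutant array was the highest and the untreated mutant array the lowest, and the wild-type arrays were nearly equal. The copper ratio was -0.03 on the log2 scale for wild-type animals, while the mutant signal rose 1.65-fold. The shared change was 0.35 (95% interval -0.14 to 0.83, limma adjusted p = 0.533). Which of the transcripts each probe set reads is not given in the sources used here.

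*mek-1* encodes the MKK7-type MAPKK that phosphorylates KGB-1. It read 2937 without and 2988 with copper on the wild-type arrays, and 2503 without and 2365 with copper on the mutant arrays. Both mutant arrays were below both wild-type arrays, and the copper ratios of 0.03 and -0.08 on the log2 scale were within the control SD. The shared copper change was -0.03, with a 95% interval of -0.26 to 0.20 (limma adjusted p = 0.932), the narrowest of the 9 copper intervals. The shared genotype difference was -0.28 (SE 0.095, 95% interval -0.52 to -0.05), that is 0.821 times the wild-type signal. It was lower at both treatments and was not called (limma adjusted p = 0.383). The unassigned probe set that carries *mek-1* and a second gene read 121 without and 126 with copper for wild-type animals. For the mutants it read 116 and 144, so it was not lower in the mutants with copper. The catalase probe sets of the array, which compare the ends of a transcript as a check of RNA integrity, had a 3' to 5' ratio of 4.61 and 4.62 on the wild-type arrays and of 3.63 and 2.90 on the mutant arrays, without and with copper. The *Gapdh* controls showed no such split by genotype, with 1.01 and 0.912 against 0.942 and 1.08. For actin both mutant arrays were also lower, but by less, with 1.85 and 1.76 against 1.70 and 1.74. The part of these differences in the genotype results was not tested.

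*mlk-1* encodes the MLK-type MAPKKK above MEK-1, and RefSeq lists 4 coding transcripts of it. The probe set 187082_s_at read 79.3 without and 149.5 with copper on the wild-type arrays, and 94.0 without and 119.03 with copper on the mutant arrays. It reached 100 on the copper-treated arrays alone, so it entered the test through them, and the rise was at least 1.50-fold in wild-type animals and at least 1.19-fold in the mutants. Its shared copper change was 0.63 (95% interval -0.04 to 1.30, limma adjusted p = 0.424). The probe set 173616_at read 109 and 120.4 for wild-type animals, and 127 and 106 for the mutants. All 4 of these signals lay within 1.19-fold of each other, and the log2 copper ratios were 0.15, within the control SD, and -0.25 (shared change -0.05, limma adjusted p = 0.954).

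*svh-2* encodes the receptor tyrosine kinase through which SVH-1 acts on the cascade. The probe set 190641_s_at read 255 without and 311 with copper for wild-type animals, and 257 without and 246 with copper for the mutants. The untreated arrays and the copper-treated mutant array were within 1.05-fold of each other, and the copper-treated wild-type array was 1.22-fold above its untreated counterpart. The probe set 171869_at read 76.4 and 138 for wild-type animals, and 68.4 and 90.3 for the mutants. It reached 100 on the copper-treated wild-type array alone and was tested only for that reason, with a rise of at least 1.38-fold there. The shared copper changes were 0.11 (95% interval -0.28 to 0.50, limma adjusted p = 0.822) for the former and 0.63 (95% interval -0.11 to 1.37, limma adjusted p = 0.466) for the latter.

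*svh-1* encodes a secreted protein related to hepatocyte growth factor of mammals, and *shc-1* an adaptor protein of the Shc family. The 2 probe sets of *svh-1* had signals between 1.97 and 23.3 on the 4 arrays. The probe set 184672_at of *shc-1* read 13.1 without and 74.4 with copper for wild-type animals, and 47.9 without and 33.3 with copper for the mutants. For 184668_s_at the corresponding signals were 4.49, 31.4, 11.4 and 5.32. On both, the untreated wild-type array was the lowest and the copper-treated wild-type array the highest. The third, 172507_x_at, lay between 1.30 and 4.68 and was highest in untreated mutants. Since none of these 5 probe sets reached 100, no fold change is given, and a response of *svh-1* or *shc-1* was not detectable at this signal.

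Among all worm probe sets measured in each comparison, ratios over 2 were uncommon. With copper in wild-type animals 2.11% were raised and 1.08% lowered more than 2-fold, against 2 raised and 0 lowered of the 9 cascade probe sets measured there. In the mutants 1.51% were raised and 0.753% lowered, against 0 and 0 of 8. Between the genotypes 1.53% differed 2-fold without copper and 2.63% with copper, against 0 of 7 and 0 of 9. The limma model called 1.53% of all tested probe sets for copper and 0.337% for genotype, and 0 and 0 of the 9 cascade probe sets. At an unadjusted p under 0.05 these shares were 12.8% and 10.8%, and 2 cascade probe sets passed for copper (*kgb-1* and *vhp-1* 193148_at) and 1 for genotype (*mek-1*).

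**Figure D2:**
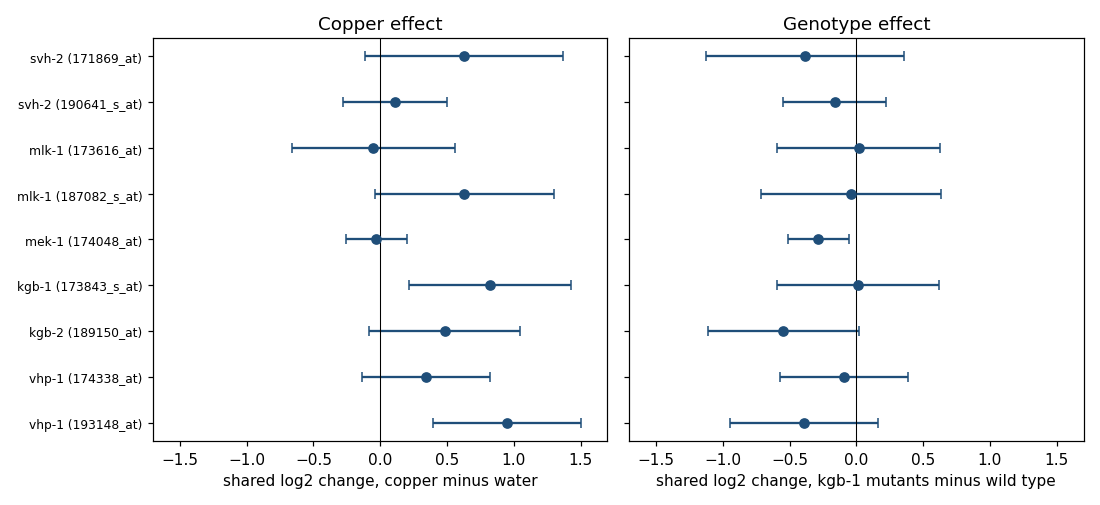
Shared log2 change with copper (left) and shared log2 difference of *kgb-1* mutants from wild-type animals (right) for the 9 cascade probe sets tested, with 95% intervals from the limma fit. The copper interval lies above 0 for *kgb-1* and *vhp-1* 193148_at and the genotype interval below 0 for *mek-1*, and no probe set passed after adjustment over all 11266.

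The copper ratios of the 2 genotypes were then set side by side. The ratio was larger in wild-type animals than in the mutants for 12 of the 14 cascade probe sets, against 53.7% of all worm probe sets, and the 2 exceptions were *vhp-1* 174338_at and 1 dim probe set of *svh-1*. The order of dim signals is uncertain, so the 6 probe sets with at least 100 on all 4 arrays were also taken on their own. These are *kgb-1*, *kgb-2*, *mek-1*, *vhp-1* 174338_at, *mlk-1* 173616_at and *svh-2* 190641_s_at. The ratio was larger in wild-type animals for 5 of these 6, against 52.6% of all probe sets at 100 or more on all arrays. The median difference of the log2 ratios was 0.37 for the 6 and 0.02 for all, and the SD of that difference over all such probe sets was 0.337. The difference was 0.94 for *kgb-1*, 0.61 for *kgb-2*, 0.40 for *mlk-1*, 0.35 for *svh-2*, 0.11 for *mek-1* and -0.76 for *vhp-1*. The copper-treated wild-type array was the highest of the 4 for 9 of the 14 and for 4 of the 6, against 31.4% and 29.2% of the respective probe sets. Quantile normalization or an offset of 32 left both counts of the 6 at 5 and 4. Scaling every array to the same median left the ratio larger in wild-type animals for 5 of the 6, against 37.2% of all probe sets at 100 or more on all arrays, and the copper-treated wild-type array highest for 3 of the 6, against 16.4%. The median differences were then 0.27 for the 6 and -0.08 for all. These counts rest on the same 4 arrays, and a trait of 1 array and a difference between conditions cannot be told apart in them.

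**Figure D3:**
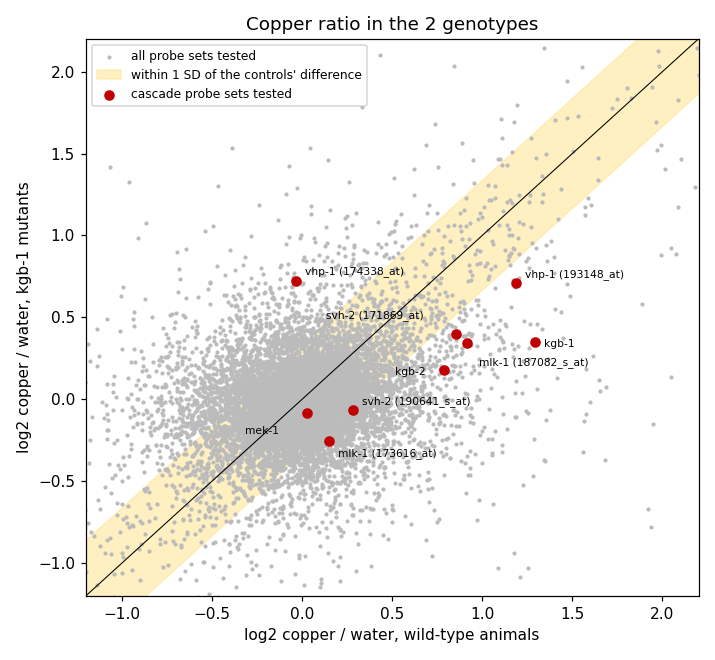
Log2 ratio of copper over water in wild-type animals (horizontal) and in *kgb-1* mutants (vertical) for the 9 cascade probe sets tested (red) and all probe sets tested (grey, those beyond the axes not drawn), with the line of equal ratios and 1 SD of the difference among hybridization controls shaded. *vhp-1* 174338_at lies above the line and the other 8 cascade probe sets lie below it, *mek-1* within the shaded band. *svh-2* 171869_at is among the 8 but was tested only through its copper-treated wild-type signal, which favours that side. *mlk-1* 187082_s_at and *vhp-1* 193148_at, also among the 8, had untreated signals below 100 too.

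Genes outside the cascade but linked to it were described from lists. Among 13 tested probe sets for partners and targets of KGB-1, 2 rose with copper and 1 was lower in the mutants. The first of these was 1 of 2 probe sets of *fos-1*, which encodes a Fos-type bZIP transcription factor. It read 297 without and 604 with copper for wild-type animals, and 262 without and 467 with copper for the mutants, with each copper-treated array above each untreated one. Its shared change was 0.93 (SE 0.132, limma adjusted p = 0.0303), and the call was lost when every signal below 100 was raised to 100 (limma adjusted p = 0.0706). The second *fos-1* probe set read 184 and 217 for wild-type animals, and 121 and 261 for the mutants (limma adjusted p = 0.331). The other call was *kreg-1*, which the study first picked on these arrays as regulated by KGB-1. Its array values are thus no independent evidence. Apart from the arrays, the study reported weaker copper induction of *kreg-1* in the mutants by qRT-PCR and with a reporter driven by its promoter. The shared changes of *kreg-1* on the arrays were 2.13 for copper (limma adjusted p = 0.0145) and -2.67 for genotype (limma adjusted p = 0.0219). Its untreated mutant signal was 37.2, and both calls were lost with signals raised to 100 (limma adjusted p = 0.367 and 0.319). The study's other copper-induced target, *lys-3* (*kreg-2*), was not called for copper (limma adjusted p = 0.348) or genotype (-4.375, limma adjusted p = 0.0829). Its log2 copper ratios were 1.825 in wild-type animals and 1.842 in the mutants. The mutant signals behind the latter were only 4.31 and 15.4. By qRT-PCR the study reported weaker induction of this gene in the mutants too.

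None of 17 tested probe sets for the p38 and JNK-1 cascades passed for either factor, nor did any of 12 for the ERK cascade, 15 for genes that act upstream of MLK-1 or in axon regeneration, and 8 for other receptor and insulin signalling. The smallest adjusted p for copper among the first belonged to *sek-1*, the gene for a MAPKK of the p38 pathway, with 102 without and 245 with copper for wild-type animals, and 164 without and 204 with copper for the mutants (shared change 0.79, limma adjusted p = 0.296). As for *kgb-1*, its lowest array was the untreated and its highest the copper-treated wild-type array. The second *sek-1* probe set had a shared change of 0.13 (limma adjusted p = 0.754). *sek-3*, a related MAPKK gene, had 0.37 (limma adjusted p = 0.372). *ets-4*, a gene for an ETS transcription factor, read 196 and 81.6 for wild-type animals, and 124 and 101 for the mutants (-0.78, limma adjusted p = 0.367), so that its highest array was the untreated wild-type one. *ced-2*, an adaptor gene of the engulfment pathway, had a shared change of -0.36 (limma adjusted p = 0.364) on 1 probe set and -0.06 on another. In the ERK list the smallest values belonged to the scaffold gene *ksr-1* (0.25, limma adjusted p = 0.569) and the MAPKK gene *mek-2* (0.36, limma adjusted p = 0.588). Another *ksr-1* probe set had 0.009. In the receptor and insulin list the smallest values belonged to the PI3-kinase gene *age-1* (-0.48, limma adjusted p = 0.258) and the FOXO gene *daf-16* (-0.47, limma adjusted p = 0.314). Another *age-1* probe set had -0.10, and the other tested *daf-16* probe sets had the opposite sign (0.05 and 0.12). Over the probe sets at 100 or more on all arrays, the median difference of the copper ratios was 0.15 for the p38 and JNK-1 list, 0.04 for ERK, -0.03 for the genes upstream of MLK-1, 0.13 for partners and targets and 0.01 for the receptor and insulin list, beside the 0.37 of the cascade.

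**Figure D4:**
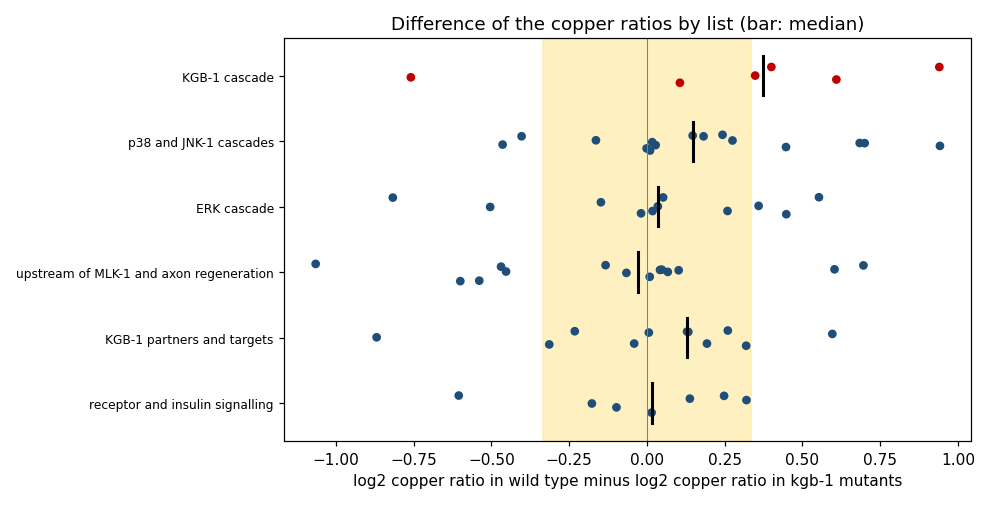
Difference between the log2 copper ratio in wild-type animals and that in *kgb-1* mutants for probe sets with at least 100 on all 4 arrays, 1 point each, for the cascade (red) and 5 lists of related genes (blue), with vertical bars at the medians and 1 SD of the hybridization controls shaded. The cascade points run from -0.76 (*vhp-1*) to 0.94 (*kgb-1*), and the lists overlap with them.

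The probe sets most like *kgb-1* over the 4 arrays, by the root mean square difference of log2 signals centred on their own means, were those of the collagen gene *col-132* (0.041), the cuticlin-like gene *cutl-14* (0.049) and the Wee1-like kinase gene *wee-1.1* (0.054). Their untreated wild-type signals were 63.6, 62.9 and 49.2, and their copper-treated wild-type signals 160.2, 147 and 111. All their untreated signals, in both genotypes, were below the signal minimum. *wee-1.1* reached the minimum on the copper-treated wild-type array alone, where *kgb-1* was also highest, and was compared only for that reason. Most like *vhp-1* 193148_at were *F14F9.4* (0.055), the infection response gene *irg-2* (0.062) and *glam-1* (0.064). *irg-2* read 1550 without and 3431 with copper for wild-type animals, and 1311 without and 2406 with copper for the mutants, with both copper-treated arrays above both untreated ones as for *vhp-1*. Most like *vhp-1* 174338_at were *F13E9.13* (0.030), *C06E7.2* (0.050) and *ZK470.2* (0.052). Of these, *C06E7.2* reached the signal minimum on the copper-treated mutant array alone and was compared only for that reason. That array was also the highest for *vhp-1* 174338_at. With 4 arrays and 11266 probe sets, the likeness is a description of these arrays.

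The genes next to *kgb-1*, *kgb-2* and *vhp-1* in the RefSeq gene order were read as well, an addition made after the members' values were seen. On 1 side of *kgb-1*, *gpa-4*, the gene for a G protein alpha subunit, stayed below 100, and *rrp-8* read 1284 without and 1152 with copper for wild-type animals, and 1319 without and 1211 with copper for the mutants. On the other side, *T07A9.12* read 115 and 113, and 102 and 135. *eri-1*, a gene of the small RNA pathways, read 576 and 452, and 490.2 and 525 on 1 of 2 probe sets. The log2 copper ratios in wild-type animals were -0.16 for *rrp-8*, -0.03 for *T07A9.12* and -0.35 and -0.28 for the *eri-1* probe sets, against 1.29 for *kgb-1*. Near *kgb-2*, *Y37E11B.7* was called for copper, with 172 without and 344 with copper for wild-type animals, and 139 without and 300.3 with copper for the mutants (shared change 1.05, limma adjusted p = 0.0346). Both of its copper-treated arrays were above both untreated ones. None of the tested neighbours of *vhp-1*, *F09E5.8* and *F09E5.7*, was called (limma adjusted p = 0.950 for the former and 0.514 and 0.517 for the latter), and neither was *ltah-1.2* near *kgb-2* (limma adjusted p = 0.981). *ltah-1.2* read 128 without and 47.0 with copper for wild-type animals, and 26.1 and 65.3 for the mutants. Its log2 copper ratios of -1.45 and 1.32 cancel in the shared change, and only its untreated wild-type signal reached 100.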

How the data were processed

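The authors deposited MAS5 signal intensities of 4 arrays on a linear scale, 1 per condition, each scaled so that the mean without the highest and lowest 2% was 499.8. The MAS5 version is not given in the sources used here. Probe sets were named by the platform's gene table, in which 20766 carry 1 symbol (20701 matched by Entrez identifier to RefSeq, assembly WBcel235). That table was used for names, transcript counts and gene order only, because the files name no genome build. Protein and promoter sequences were not analysed here. Signals were used as deposited, and log2 of the signal was taken without an offset.

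Copper and genotype were 2 additive factors of a linear model of log2 signal in limma 3.58.1 (R 4.3.3). Variances were moderated with trend, and a Benjamini-Hochberg adjusted p under 0.05 was a call, over the 11266 of 22548 worm probe sets with at least 100 on any array. This leaves 1 residual degree of freedom, which is the disagreement between the genotypes, and the prior adds 5.19. A gene that responds in 1 genotype alone therefore widens its own error, and an interaction cannot be tested. With 1 array per condition, p-values measure the spread between these 4 arrays. The number of arrays limits the precision. The 2-fold rule required a ratio over 2 or under 0.5 with the brighter signal at least 100. The genes, lists and alternatives were chosen with earlier results of these data known. Named were all cascade probe sets, the 3 most like *kgb-1* and each *vhp-1* probe set, the probe sets of each list that were called, up to 2 with the smallest adjusted p for copper where none was, and those of *fos-1* and *kreg-1*. The gene neighbours and the unassigned *mek-1* probe set were added after their values were seen. So were *lys-3* and the further probe sets of *sek-1*, *ced-2*, *ksr-1*, *age-1* and *daf-16*. Of the listed genes, *nsy-1*, *rho-1* and *vit-3* had no probe set with 1 symbol. Germline, intestine, muscle and neuron markers gave no call for either factor. Plots were drawn with matplotlib 3.10.9 from Python 3.11.15 with numpy 2.4.6 and pandas 2.3.3.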

Additional observations from a re-analysis of the deposited data

Results flagged for a closer look

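With all 4 signals at 100 or more, the log2 copper ratio had opposite signs in the 2 genotypes for 4 cascade probe sets, with 1 array per condition, and the difference was not tested. The ratios were -0.03 in wild-type animals and 0.72 in the mutants for *vhp-1* 174338_at (wild-type minus mutant -0.76), 0.15 and -0.25 for *mlk-1* 173616_at (0.40), 0.28 and -0.06 for *svh-2* 190641_s_at (0.35) and 0.03 and -0.08 for *mek-1* (0.11). In each of the 4, at least 1 of the ratios was within the SD of the hybridization controls (0.176 for wild-type animals and 0.215 for the mutants), so an opposite movement is not shown. With equal medians the ratios were -0.11 and -0.11 for *mek-1*, thus of 1 sign, 0.15 and -0.10 for *svh-2*, and 0.02 and -0.28 for *mlk-1*. The SD of the difference was 0.335 among the controls, which carry technical spread only, and 0.397 among probe sets at 100 or more on all arrays with a mean signal under 500, which the *svh-2* difference does not exceed.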

How the results depend on the processing

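No cascade probe set was called for copper or for genotype, in either direction, under a signal minimum of 50, of 200 or none, quantile normalization, equal medians, an offset of 32, signals below 100 raised to 100, a fit without the second factor, only probe sets with no suffix, or with any 1 array left out (in a fit without the second factor, since both factors would leave no residual). The adjusted p for copper was between 0.103 and 0.999 for *kgb-1* and between 0.0766 and 0.906 for *vhp-1* 193148_at over these alternatives, the lowest of each without the copper-treated mutant array. The shared copper change stayed positive, between 0.58 (without the untreated wild-type array) and 1.06 (without the untreated mutant array) for *kgb-1* and between 0.63 and 1.27 for *vhp-1* 193148_at. The *kgb-1* genotype difference ran from -0.63 to 0.66 and changed sign in 4 of 12 alternatives. For *kgb-2*, the shared copper change of 0.48 became 0.06 without the copper-treated wild-type array and 0.91 without the copper-treated mutant array, and the genotype difference of -0.55 ran from -0.94 (without the untreated wild-type array) to -0.15 (without the copper-treated wild-type array). The 2 probe sets raised over 2-fold by copper in wild-type animals became 1 with an offset of 32, 1 without suffixed probe sets (the *kgb-1* probe set carries one), 3 with a minimum of 50 and 5 with no signal minimum. With no minimum, 1 was also lowered in wild-type animals, 1 raised and 2 lowered in the mutants, 4 higher and 1 lower in untreated mutants than in untreated wild-type animals, and 2 lower in copper-treated mutants than in copper-treated wild-type animals, which is 1 with a minimum of 50. These additions come from *svh-1* and *shc-1*, whose signals are all below 100. Scaling to equal medians lowered the copper ratio in wild-type animals by 0.13 on the log2 scale and moved the median ratio of all tested probe sets there from 0.01 to -0.12. The *fos-1* call for copper was also lost without the second factor (limma adjusted p = 0.108) and on leaving out any 1 array other than the copper-treated mutant one (0.142 to 0.393), and the *kreg-1* call for copper without the second factor (0.635) and on leaving out any 1 of the same 3 arrays (0.365 to 1). The *kreg-1* call for genotype was lost without the second factor (0.685) and without any 1 array (0.157 to 0.997). No paired analysis was possible because the groups share only replicate number 1. Dim signals limit what can be said of *svh-1*, *shc-1* and the weaker probe sets of *svh-2* and *mlk-1*.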
